A study of Mus musculus with 10 samples.

Results

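The genes described here are 10 genes of cell killing: the granule proteases Gzma, Gzmb and Gzmk, the pore former Prf1, the granule membrane protein Nkg7, the natural killer (NK) cell receptors Ncr1, Klrd1 and Klrb1c, the death ligand Fasl and the cytokine Ifng. They were chosen by name, as every non-control probe whose gene name in the scanner files is one of these 10 symbols. That gave 14 probes of 41174 in all. Of these, 13 passed the filter on dim probes, which asks for a signal well above background on 3 or more of the 10 arrays, and every one of the 10 genes kept at least 1 probe, among 17775 genes and unnamed transcripts tested.

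The data are messenger RNA levels in lymphomas that arose spontaneously in 10 ageing mice, measured on single-colour (Cy3) Agilent arrays with 1 array per tumour. The transcription factor C/EBPβ exists in several isoforms translated from the same messenger RNA, and LIP, the shortest, keeps the DNA-binding end and lacks the activating end. The 5 +/L mice are heterozygous for the LIP allele and so keep 1 normal copy of the gene, and the 5 +/+ mice are wild type. All were housed free of specific pathogens and received no treatment named in the labels. The +/L mice were 11 to 21 months old when killed and the +/+ mice 20 to 29 months (mean 18.0 ± 4.06 against 24.9 ± 3.47, SD, n = 5 each, exact two-sided permutation p = 0.032), so that age differed with genotype. The labels give the tissue only as lymphoma, with no B-cell or T-cell class. Each array read a whole piece of tumour, tumour cells and infiltrating cells together, so fewer cells of a type and less RNA per cell cannot be told apart in any value below.

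Cytotoxic T cells and NK cells kill by fusing granules with the membrane that faces the target. Perforin opens the way for granzymes, serine proteases that start cell death, while Fas ligand triggers caspases through the receptor Fas, and interferon-gamma raises antigen presentation in its surroundings. NK receptors of the lectin family (Klrd1, Klrb1c) and the natural cytotoxicity receptor Ncr1 govern when an NK cell fires. Klrd1 and granule genes are also made by activated CD8 T cells, whereas Ncr1 is largely a gene of NK cells and related innate lymphoid cells.

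The probes below are shown as examples of what the arrays read and were picked by hand from the 14. The values of Gzmk, Prf1, Klrd1 and Gzma come from the first 4 printed. The next 2 are second probes of Nkg7 and Fasl, and the last is the Klrb1c probe that no array measured. Each is 60 bases, written 5′ to 3′ in the sense of the transcript. For each of the 14 probes, those transcripts listed in the files that were found in RefSeq belong to its 1 gene. The coordinates are those of the files (mm9); exon and UTR annotation of that build was not used here. The Gzmk probe lies at chr13:113962100-113962159, minus strand, the Prf1 probe at chr10:60766528-60766587, plus strand, the Klrd1 probe at chr6:129548391-129548450, plus strand, and the Gzma probe at chr13:113885986-113886045, minus strand. The Nkg7 probe lies at chr7:50693148-50693207, plus strand, the Fasl probe at chr1:163718079-163718138, minus strand, and the Klrb1c probe at chr6:128734770-128734829, minus strand.
Gzmk: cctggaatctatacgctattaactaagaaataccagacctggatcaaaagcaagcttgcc
Prf1: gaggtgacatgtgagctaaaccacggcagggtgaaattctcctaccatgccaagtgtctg
Klrd1: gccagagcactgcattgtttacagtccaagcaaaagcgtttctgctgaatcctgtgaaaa
Gzma: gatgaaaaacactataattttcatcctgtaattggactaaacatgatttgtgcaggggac
Nkg7: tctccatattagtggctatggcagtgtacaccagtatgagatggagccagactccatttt
Fasl: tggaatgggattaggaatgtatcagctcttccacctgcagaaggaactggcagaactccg
Klrb1c: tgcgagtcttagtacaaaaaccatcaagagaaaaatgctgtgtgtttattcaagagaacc

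The promoters below are shown because of a test of correlation across the tumours, given below. In it 5 of the 6 pairs among Gzmk, Nkg7, Prf1 and Fasl (by its brighter probe) passed, and no pair with Gzmb did. Each promoter is the 250 bases before the start of the gene in RefSeq (GRCm38.p6), 5′ to 3′ on the gene's strand. Capitals mark letters found by a search of both strands for 5 motifs: TCACAC of T-box factors (Tbx21, Eomes), TGTGGT of RUNX factors, AGGAAG of ETS factors, TTCNNNGAA of STAT factors, called GAS, and TTGCNNAA of C/EBP factors. The windows are chr13:113180966-113181215 for Gzmk, chr7:43436888-43437137 for Nkg7, chr10:61297586-61297835 for Prf1, chr1:161788496-161788745 for Fasl and chr14:56262335-56262584 for Gzmb.
Gzmk: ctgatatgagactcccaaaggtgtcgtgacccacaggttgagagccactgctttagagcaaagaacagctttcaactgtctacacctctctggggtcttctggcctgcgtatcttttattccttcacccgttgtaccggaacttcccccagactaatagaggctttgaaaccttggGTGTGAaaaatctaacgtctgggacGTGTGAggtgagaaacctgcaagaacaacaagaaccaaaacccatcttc
Nkg7: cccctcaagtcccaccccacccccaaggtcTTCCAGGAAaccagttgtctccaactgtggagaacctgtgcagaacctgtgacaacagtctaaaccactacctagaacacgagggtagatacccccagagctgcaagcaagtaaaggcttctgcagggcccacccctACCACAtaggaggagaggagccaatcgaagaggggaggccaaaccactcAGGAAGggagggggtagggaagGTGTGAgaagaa
Prf1: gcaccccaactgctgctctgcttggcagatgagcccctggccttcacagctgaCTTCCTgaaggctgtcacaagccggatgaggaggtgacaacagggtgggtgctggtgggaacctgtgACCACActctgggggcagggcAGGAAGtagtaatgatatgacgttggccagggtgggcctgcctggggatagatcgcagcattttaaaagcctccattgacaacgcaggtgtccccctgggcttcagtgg
Fasl: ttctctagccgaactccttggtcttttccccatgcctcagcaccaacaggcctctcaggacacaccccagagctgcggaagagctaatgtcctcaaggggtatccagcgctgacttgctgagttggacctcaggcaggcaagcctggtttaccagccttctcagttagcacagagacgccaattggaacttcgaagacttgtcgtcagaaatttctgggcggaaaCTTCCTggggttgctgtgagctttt
Gzmb: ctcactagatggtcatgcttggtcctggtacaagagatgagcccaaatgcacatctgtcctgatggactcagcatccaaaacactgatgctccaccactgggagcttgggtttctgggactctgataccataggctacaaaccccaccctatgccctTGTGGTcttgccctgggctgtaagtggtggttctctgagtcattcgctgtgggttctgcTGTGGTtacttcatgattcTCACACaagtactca

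RefSeq windows were at hand for 9 of the 10 genes, all except Klrd1. These genes had 10 windows, Ncr1 holding the additional window. A gene is counted if any of its windows matched, while the shares of all are per window. The T-box letters were in 4 of these 9 genes (Gzmb, Gzmk with 2 matches, Nkg7 and Ncr1) and in 12.3% of 32851 promoter windows of the same length. RUNX letters were in 6 of 9 (Gzma, Gzmb, Prf1, Nkg7, Ncr1 and Klrb1c) against 14% of all windows, and ETS letters in 4 of 9 (Prf1, Nkg7, Klrb1c and Fasl) against 29.5%. The GAS letters were in 2 of 9 (Nkg7 and Ifng) against 7.02%. The C/EBP letters were in 0 of 9 genes and in 9.56% of all windows. A match describes letters in a window and shows no binding, and where letters were not found nothing is said of the factor. No motif of the 5 was in all 4 windows of Gzmk, Nkg7, Prf1 and Fasl: ETS letters were in Nkg7, Prf1 and Fasl, and T-box letters in Gzmk and Nkg7.

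Between 48.0% and 66.7% of non-control spots were well above background on an array, and no spot was saturated. Each array was scaled by the 75th percentile of its signal. This was 309 to 651 in the +/L arrays and 199 to 340 in the +/+ arrays (exact two-sided permutation p = 0.032). The scaling removes this difference in raw brightness at that percentile, but not necessarily for dim probes. Without the filter on dim probes the median difference, +/L minus +/+, was 0.16 log2 units over 27672 genes. With the filter it was -0.02 over 17775. Markers of both lymphocyte lineages were well above background on 10 of 10 arrays (Cd79a for B cells, Cd3e and Cd8a for T cells). Of 3 mice labelled male, 2 (mouse 20, +/L, and mouse 11, +/+) had Xist and lacked Y-linked transcripts, so the label and the RNA of these mice disagree. By the scan times in the file headers, slide 1 held mice 20 and 688 (+/L) and 40 and 17 (+/+), slide 2 held mouse 866 (+/L) and mice 101 and 19 (+/+), and slide 3 held mice 23 and 517 (+/L) and 11 (+/+). The description labels give another slide for 2 arrays: they put mouse 866 with the arrays of slide 1 and mouse 17 with those of slide 2. Results that rest on these arrays are given without them too.

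All values below are on a log2 scale relative to the 75th percentile of the array's processed signal, so 0 is that percentile and 1 unit is a doubling. Values of different genes come from different probes and are not compared. Values are given for +/+ mice 40, 11, 101, 17 and 19 and then for +/L mice 20, 866, 688, 23 and 517, always in this order. Differences are +/L minus +/+ from limma with no covariate, with Benjamini-Hochberg adjustment over 17775 genes. None of the 10 genes differed between the genotypes at an adjusted p under 0.05 (0% of all genes did) or at an unadjusted p under 0.05 (8.58% of all genes did, 3.14% higher and 5.44% lower in +/L), and limma with trend and robust fitting gave 0 of 10 at either level as well. The groups overlapped for 10 of 10 genes, while they did not overlap for 1.8% of all genes. The mean was higher in +/L for 4 genes (Gzma, Ncr1, Klrd1 and Klrb1c) and lower for 6, beside 51.9% of all genes that were lower. The median difference of the 10 genes was -0.11, and that of all genes was -0.02.

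**Figure D1:**
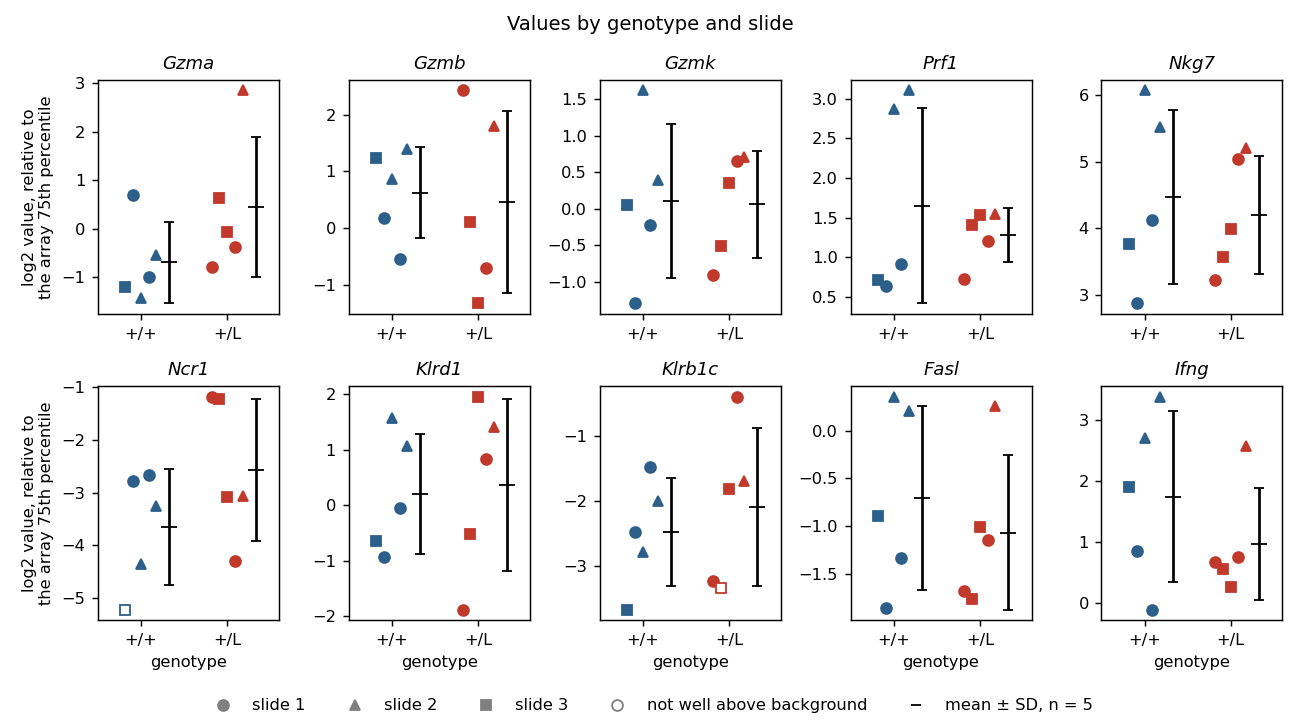
Log2 values of each gene relative to the array's 75th percentile (vertical axis) in the 5 +/+ and 5 +/L tumours, with the slide of the file headers as the symbol, readings not well above background as open symbols, and the mean ± SD beside each group. The groups overlap for every gene, and for Prf1, Nkg7, Fasl and Ifng the 3 triangles of slide 2 are the 3 highest tumours.

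Granzyme A and granzyme K are trypsin-like proteases encoded by neighbouring protein-coding genes on chromosome 13. Gzma read -0.99, -1.20, -0.53, 0.69 and -1.43 in the +/+ tumours and -0.78, 2.86, -0.38, 0.63 and -0.07 in the +/L tumours. A single +/L tumour, that of mouse 866, stood above all others, and the remaining tumours of the 2 genotypes overlapped. The mean was 0.45 ± 1.44 in +/L and -0.69 ± 0.84 in +/+ (SD, n = 5 each), a difference of 1.14 with an SE of 0.67 (limma adjusted p = 0.65). Within slides 1, 2 and 3 the difference was -0.43, 3.84 and 1.48, and without mouse 866 it was 0.54. With age as a covariate the difference turned to -0.59 (limma adjusted p = 0.91), so that the direction for Gzma depends on the covariate.

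Gzmk read -0.21, 0.05, 0.39, -1.29 and 1.62 in +/+ and -0.91, 0.71, 0.65, -0.51 and 0.36 in +/L. Both the highest tumour (mouse 19) and the lowest (mouse 17) were +/+, and the +/L values lay between them. The difference was -0.05 with an SE of 0.52 (limma adjusted p = 0.98), the smallest of the 10 in size.

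Gzmb, the aspartate-cutting granzyme that activates caspases, read -0.54, 1.24, 1.39, 0.17 and 0.87 in +/+ and 2.43, 1.8, -0.71, 0.10 and -1.33 in +/L. The 2 highest tumours (mice 20 and 866) and the 2 lowest (mice 517 and 688) were all +/L, so the +/L group spanned the +/+ group. The SD was 1.61 in +/L and 0.80 in +/+, and the difference was -0.17 with an SE of 0.72 (limma adjusted p = 0.96).

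Perforin is the pore-forming protein without which granzymes do not reach the target's cytosol. Prf1 read 0.92, 0.71, 3.11, 0.64 and 2.88 in +/+ and 0.72, 1.55, 1.20, 1.41 and 1.53 in +/L. In +/+ the tumours split into 2 high (mice 101 and 19, both on slide 2) and 3 low, and the +/L tumours lay between 0.72 and 1.55 (SD 0.34 against 1.23 in +/+). The difference was -0.37 with an SE of 0.52 (limma adjusted p = 0.87), and it was 0.19, -1.45 and 0.76 within slides 1, 2 and 3.

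Nkg7 encodes a membrane protein of cytotoxic granules. Its brighter probe (chr7:50693482-50693541, plus strand) read 4.12, 3.77, 5.53, 2.87 and 6.08 in +/+ and 3.21, 5.21, 5.05, 3.56 and 3.98 in +/L. The lowest and the highest tumour, mice 17 and 19, were both +/+. The difference was -0.27 with an SE of 0.64 (limma adjusted p = 0.93). The second probe, whose sequence is printed above, moved with the first across the 10 tumours (Pearson r = 0.992) and gave a difference of -0.44.

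Ncr1, which encodes NKp46, read -2.67, -5.22, -3.26, -2.77 and -4.35 in +/+ and -1.18, -3.06, -4.29, -1.23 and -3.08 in +/L, and its reading in mouse 11 was not well above background. The 2 highest tumours (mice 20 and 23) were +/L, but mouse 688, also +/L, had the third lowest reading. The mean was -2.57 ± 1.34 in +/L and -3.65 ± 1.1 in +/+ (SD, n = 5 each), a difference of 1.09 with an SE of 0.70 (limma adjusted p = 0.68). It was -0.02, 0.75 and 3.06 within slides 1, 2 and 3, and the last rests on the unmeasured reading of mouse 11.

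Klrd1 encodes CD94, the partner chain of the NKG2 receptors. It read -0.05, -0.64, 1.07, -0.93 and 1.57 in +/+ and -1.88, 1.41, 0.84, -0.51 and 1.96 in +/L. The +/L group held both the lowest tumour (mouse 20) and the highest (mouse 517), and the difference was 0.16 with an SE of 0.76 (limma adjusted p = 0.96).

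Klrb1c encodes NK1.1, the classical surface marker of mouse NK cells. Its measured probe (chr6:128728603-128728662, minus strand) read -1.49, -3.68, -2.0, -2.48 and -2.79 in +/+ and -3.23, -1.70, -0.40, -3.35 and -1.82 in +/L, the reading of mouse 23 not being well above background. Mouse 688 (+/L) was highest and mouse 11 (+/+) lowest. The difference was 0.39 with an SE of 0.60 (limma adjusted p = 0.88). The other Klrb1c probe, printed above, was well above background on 0 of 10 arrays, so no change is read from it, and its readings did not follow those of the measured probe (Pearson r = -0.04).

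Fasl read -1.33, -0.89, 0.20, -1.86 and 0.35 in +/+ and -1.68, 0.25, -1.15, -1.76 and -1.01 in +/L with its brighter probe (chr1:163711300-163711359, minus strand). The 3 tumours of slide 2 lay between 0.20 and 0.35 and the other 7 between -1.86 and -0.89, with no tumour in the gap. The difference was -0.36 with an SE of 0.51 (limma adjusted p = 0.87). The second Fasl probe, printed above, was well above background on 9 arrays and its Pearson r with the first was 0.627. By this probe the highest tumour was mouse 20 of slide 1 (-2.28), above mice 19 (-2.39), 866 (-2.67) and 101 (-2.99) of slide 2.

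Ifng read -0.11, 1.9, 3.39, 0.85 and 2.72 in +/+ and 0.68, 2.57, 0.75, 0.56 and 0.26 in +/L (chr10:117882841-117882900, plus strand). Among +/L tumours, mouse 866 stood apart at 2.57 and the other 4 lay between 0.26 and 0.75, while 3 of the +/+ tumours were at 1.9 or more. The mean was 0.96 ± 0.92 in +/L and 1.75 ± 1.41 in +/+ (SD, n = 5 each), a difference of -0.78 with an SE of 0.68 (limma adjusted p = 0.77). Within slides 1, 2 and 3 it was 0.35, -0.48 and -1.49. A second probe followed the first (Pearson r = 0.998) with a difference of -0.69.

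Exact two-sided permutation tests of the 10 differences, each over all splits of the 10 tumours into 5 and 5, gave p from 0.15 (Gzma) to 0.93 (Gzmk), where the smallest p the design allows is 0.0079. These p-values do not show that the levels were alike, since with SEs of 0.51 to 0.76 even a difference of 1.14 log2 units (Gzma) did not pass. The difference plot shows how far single tumours, age and slide moved each value. With the slide of the file headers as a block, 3 of 10 genes were lower in +/L. With the slide of the description labels, which puts 3 +/+ arrays and no +/L array on a slide of their own, 0 of 10 were. With age as a covariate 9 of 10 were lower, all except Ncr1. Of all 17775 genes, 9331, 9236 and 8101 were lower in these fits, in the same order, and 9225 without a covariate. Ncr1 alone kept its sign in each alternative fit that held it, from 0.21 to 1.52, although its difference within slide 1 was -0.02. The size of the Ncr1 difference depended on the processing. It was 1.09 in the main fit, 0.30 with normexp and quantile normalization and 0.21 with the authors' deposited values.

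**Figure D2:**
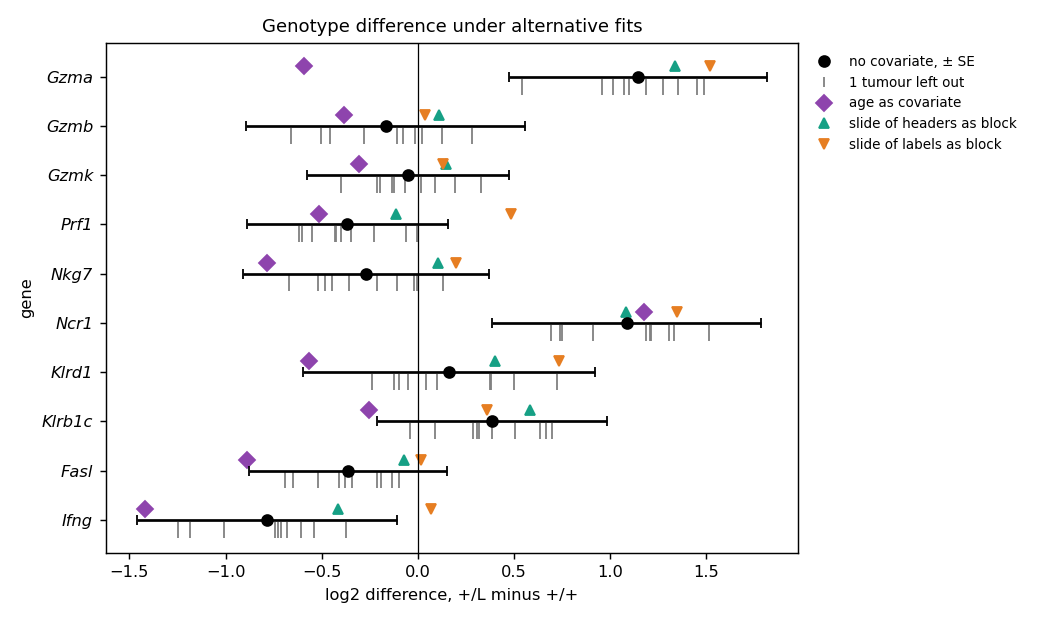
Difference between genotypes in log2 units (+/L minus +/+, horizontal axis) for each gene, from the fit without a covariate (black, ± SE), with each tumour left out in turn (grey ticks), with age as a covariate (diamonds) and with slide as a block (triangles). For Gzma the value is 1.14 without a covariate and -0.59 with age, and Ncr1 lies above 0 in every fit drawn.

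The levels spanned a wide range from tumour to tumour. Over the 10 tumours the range was 2.21 log2 units for Fasl, or 4.62-fold, and 4.29 for Gzma, or 19.5-fold, with the other 8 genes between these. The SD over the tumours ran from 0.86 (Gzmk) to 1.29 (Ncr1), while the median SD over all genes was 0.56. A summary value per tumour, the mean over the 10 genes of the value standardised to mean 0 and SD 1, was highest in mouse 866 (+/L, 0.89), followed by mice 101 (0.75) and 19 (0.64), both +/+. It was lowest in mouse 17 (+/+, -0.60), with mouse 11 (+/+) at -0.50 and mouse 20 (+/L) at -0.47. Mouse 866, the youngest at 11 months, was above the mean for 10 of 10 genes and among the 3 highest tumours for 9 of them. The highest and the lowest tumour thus had different genotypes, and the +/+ group held values near both ends.

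**Figure D3:**
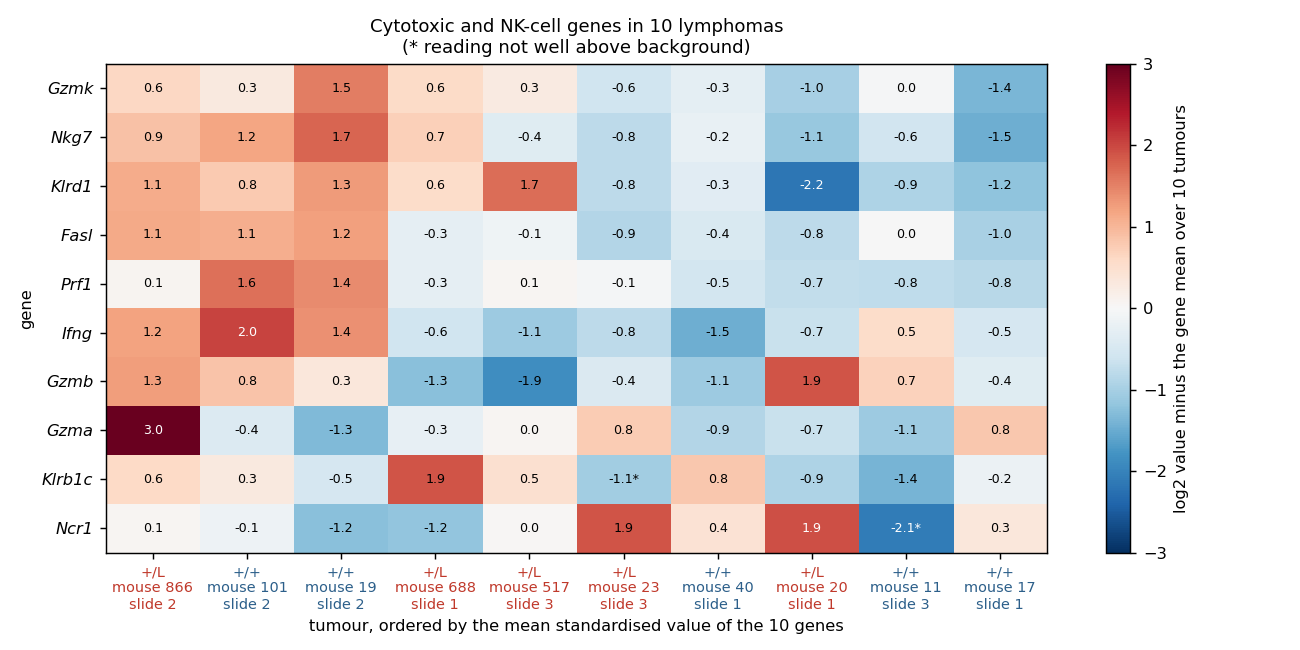
Log2 value of each gene (rows) minus its mean over the 10 tumours, with tumours in columns ordered by their summary value and marked by genotype, mouse and slide; red is above and blue below the gene's mean, and a star marks a reading not well above background. The upper 6 rows are above their mean in the 3 tumours on the left (Prf1 in mouse 866 only by 0.08), whereas Gzmb, Gzma, Klrb1c and Ncr1 follow other orders.

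Among the 10 genes, some pairs rose and fell together. Pearson and Spearman correlations were computed for all 45 pairs over the 10 tumours, with permutation p from 100000 resamples adjusted over the 45. For 7 pairs the adjusted permutation p of Pearson r was under 0.05, and these involved 6 genes: Gzmk, Nkg7, Klrd1, Fasl, Prf1 and Ifng. By r, Klrd1 was tied to the others by its pair with Gzmk alone, and Ifng by its pair with Fasl alone. By rank, Klrd1 with Prf1 passed too (rho = 0.818, permutation p = 0.0054, adjusted 0.049), whereas its r did not (0.673, permutation p = 0.031, adjusted 0.11). The closest was Gzmk with Nkg7, a protease and a membrane protein of the same granule (r = 0.923, permutation p = 9e-05, adjusted 0.0040; rho = 0.927, permutation p = 0.00027, adjusted 0.012). Nkg7 also rose with Fasl (r = 0.898, permutation p = 0.00055, adjusted 0.012; rho = 0.867, permutation p = 0.0020, adjusted 0.030) and with Prf1 (r = 0.824, permutation p = 0.0022, adjusted 0.020; rho = 0.830, permutation p = 0.0048, adjusted 0.049).

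Gzmk rose with Fasl (r = 0.840, permutation p = 0.0019, adjusted 0.020; rho = 0.903, permutation p = 9e-04, adjusted 0.020) and with Klrd1 (r = 0.835, permutation p = 0.0026, adjusted 0.020; rho = 0.818, permutation p = 0.0066, adjusted 0.049). The remaining pairs, Fasl with Ifng and Prf1 with Fasl, passed by r and not by rank. For Fasl with Ifng, r was 0.862 (permutation p = 0.0027, adjusted 0.020) and rho 0.648 (permutation p = 0.049, adjusted 0.17). For Prf1 with Fasl, r was 0.796 (permutation p = 0.0065, adjusted 0.042) and rho 0.709 (permutation p = 0.027, adjusted 0.12). Every pair with Fasl rests on its brighter probe, with which its second probe had an r of 0.627. Pairs with the second probe alone were not tested. With the mean of all kept probes of a gene fewer pairs passed, as given at the end. Without the 2 tumours farthest from the median of the first-named gene of each pair, r of the 7 pairs was 0.52 to 0.88, the lowest being Prf1 with Fasl. After subtracting each genotype's mean it was 0.79 to 0.93. An r of 0.7 or more was seen for 10 of the 45 pairs and for 4.23% of all pairs of the 17775 genes.

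This pattern moved in part with the slide. For 4 of the 10 genes, Nkg7, Prf1, Fasl and Ifng, the 3 tumours of slide 2 were the 3 highest, for Fasl by its brighter probe and not by its second. Among all genes, 0.658% had these 3 arrays above the other 7 and 0.343% had them below. For Ifng the slide 2 tumours lay between 2.57 and 3.39 and the rest between -0.11 and 1.9. For Prf1 the gap was narrow, 1.55 for the lowest on slide 2 and 1.53 for the highest elsewhere. Slide 2 held 1 +/L and 2 +/+ tumours, and whether its tumours or its handling set the readings cannot be told apart with 1 array per tumour.

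After subtracting slide means, r stayed high for Gzmk with Nkg7 (0.932, permutation p within slides = 0.0035), Gzmk with Fasl (0.790, permutation p = 0.0035), Gzmk with Klrd1 (0.712, permutation p = 0.035) and Nkg7 with Fasl (0.710, permutation p = 0.0093). It fell to 0.490 for Prf1 with Nkg7, to 0.120 for Fasl with Ifng and to 0.031 for Prf1 with Fasl (permutation p = 0.052, 0.85 and 0.93). Outside the 7 pairs, the within-slide r largest in size were those of Klrd1 with Klrb1c and of Gzmb with Klrd1. They were 0.900 (0.542 before subtracting slide means) and -0.884 (-0.358 before). None of the 45 within-slide values passed adjustment, the lowest adjusted permutation p being 0.052. The slides allow 864 permutations, so the smallest p is 0.0012, and a pair alone at that p would reach 0.052 after adjustment. With the slides of the description labels 6 pairs passed. Leaving out mouse 866 left 3 pairs past the threshold, and leaving out mouse 19 left 0. Without mice 866 and 17, whose slide is uncertain, 0 passed, and without mice 20 and 11, whose sex labels disagree with their RNA, 2 did.

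**Figure D4:**
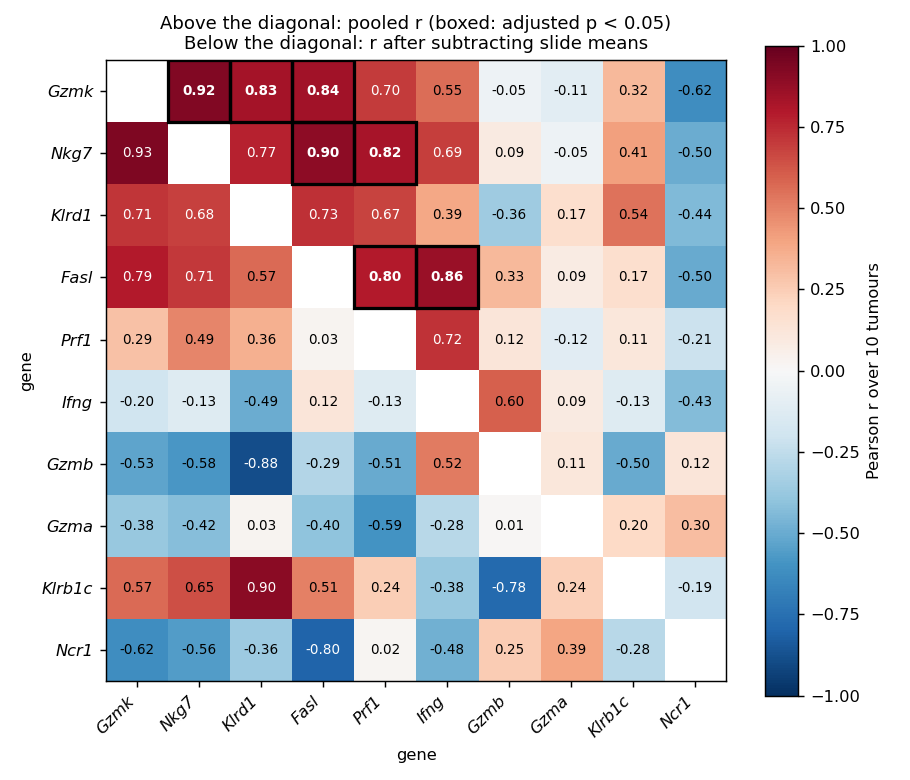
Pearson r between each pair of the 10 genes over 10 tumours, above the diagonal from the values as they are (boxed where the adjusted permutation p is under 0.05) and below it after subtracting each slide's mean. The 7 boxed pairs lie among the upper 6 genes, and below the diagonal Gzmk with Nkg7 keeps 0.93 while Fasl with Ifng drops to 0.12.

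Gzma, Gzmb, Ncr1 and Klrb1c were in none of the 7 pairs. Gzma, although next to Gzmk on chromosome 13, did not follow it (r = -0.105, permutation p = 0.77, adjusted 0.87; rho = -0.176, permutation p = 0.63, adjusted 0.82). For Ncr1, r was -0.620 with Gzmk (permutation p = 0.055, adjusted 0.18; rho = -0.673, permutation p = 0.039, adjusted 0.15), which did not pass the threshold, and -0.625 within slides.

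Genes outside the 10 whose level was most like the summary value were Sema4a (r = 0.910), AW112010 (0.906), A430093F15Rik (0.890), Rinl (0.889), Tnfrsf18 (0.871), Xcl1 (0.864), Treml4 (0.861), Rundc3b (0.857), Ppp2r1b (0.856) and Lypd1 (0.849), over 10 tumours that share their arrays and slides. Xcl1 is a chemokine of NK cells and activated CD8 T cells, and Tnfrsf18 encodes GITR, a receptor of activated and regulatory T cells. Taken gene by gene, Gzmk was most like Wdr95 (r = 0.985) and the T-box factor Eomes (0.931), Klrd1 like Slc2a3 (0.978) and the T-cell adaptor Sh2d1a (0.957), and Ifng like the interleukin-12 receptor chain Il12rb1 (0.928) and the chemokine Cxcl10 (0.926). Gzmb was most like Hpn (0.964) and Ctsc (0.939), the protease that activates granzymes by trimming them. These nearest genes were picked after their values were seen.

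The other genes of the pathway were read from lists. Of 13 further granule proteins, 7 passed the filter and 6 did not: Gzmc, Gzmd, Gzme, Gzmf, Gzmg and Gzmn were well above background on 0 to 2 arrays. Of the 7, 0 passed the adjusted threshold between genotypes and 0 an unadjusted p under 0.05, 5 were lower in +/L and the median difference was -0.14. The lowest adjusted p was that of Cst7, an inhibitor of granule cathepsins, at a difference of -0.94 (limma adjusted p = 0.74), followed by Serpinb9, the inhibitor of granzyme B, at 0.35, and Lamp1 at -0.25. Of 12 genes of granule docking and fusion, 6 were lower in +/L and 0 passed adjustment. At an unadjusted p under 0.05, 3 were lower, against 5.44% of all genes: Ap3b1 (-0.60), Stx11 (-1.03) and Ap3d1 (-0.45, limma adjusted p = 0.54 for all 3).

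Of 27 NK-cell receptors and adaptors 22 were kept, 14 higher and 8 lower in +/L, with a median difference of 0.30. None passed adjustment. The 8 lower genes were all well above background on every array. Each kept gene of this list that was dim on any array was among the 14 higher ones, so the median leans on dim genes. Klrb1f (1.6), Klrg1 (0.75) and Klra8 (1.94) were higher at an unadjusted p under 0.05, with limma adjusted p of 0.57, where 3.14% of all genes were higher. Klrb1f was well above background on 6 arrays (3 of each genotype) and Klra8 on 8 (4 of each). Of 11 kept lineage transcription factors 9 were lower in +/L, with a median of -0.49 and 0 at an unadjusted p under 0.05; Zeb2 (-0.72), Runx3 (-0.70) and Prdm1 (-0.49) had the lowest p. Of 12 kept cytokines and receptor chains that induce cytotoxicity 10 were lower, with a median of -0.49. Il12rb2 was lower at an unadjusted p under 0.05 (-1.20, limma adjusted p = 0.55), with Il2rg (-0.60) and Il21 (-1.12) next. Il12rb2 was well above background on 1 +/L and 3 +/+ arrays and Il21 on 3 and 5.

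The interferon-gamma receptor, its signalling and its target genes were lower in +/L in 23 of 24 kept genes, with a median difference of -0.50 against -0.02 for all genes, the same direction as Ifng itself. At an unadjusted p under 0.05, 8 of the 24 were lower against 5.44% of all genes, and 0 passed adjustment. Among those 8 were Cxcl11, a chemokine induced by interferon, at -2.33 and Tap1, a peptide transporter of antigen presentation, at -0.69 (limma adjusted p = 0.54 for both). Cxcl11 was well above background on 4 +/L and 5 +/+ arrays. These genes were read on the same arrays, and many are induced together, so their directions are not independent. Of 9 genes of the Fas pathway 7 were lower, with a median of -0.20 and 0 at an unadjusted p under 0.05; Faim2 (-0.53) and Cflar (-0.28) were among the 3 of lowest p.

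Across tumours Klrd1, Nkg7 and Gzmk moved with T-cell markers, and Ifng with its targets. Each of the 10 genes was set against the mean deviation of 12 lists, 120 relations with permutation p adjusted over all, and 9 passed by Pearson r, 2 of them also by rank. Those 2 were Nkg7 with the other granule proteins (r = 0.978, permutation p = 1e-05, the smallest that the resamples can give, adjusted 0.0012; rho = 0.976, permutation p = 5e-05, adjusted 0.0060) and Gzmk with the same list (r = 0.907, permutation p = 0.00019, adjusted 0.011; rho = 0.939, permutation p = 0.00021, adjusted 0.013). Within slides r was 0.950 and 0.883, and without mice 20 and 19, farthest from the median of the list, it was 0.982 and 0.855. Fasl also rose with this list (r = 0.853, permutation p = 0.0025, adjusted 0.042; rho = 0.855, permutation p = 0.0027, adjusted 0.064), with 0.673 within slides.

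Klrd1 rose with T-cell markers (r = 0.907, permutation p = 0.00052, adjusted 0.021; rho = 0.830, permutation p = 0.0050, adjusted 0.085), and r was 0.896 within slides and 0.850 without mice 20 and 19. Nkg7 (r = 0.882, permutation p = 0.00086, adjusted 0.025; rho = 0.879, permutation p = 0.0017, adjusted 0.051) and Gzmk (r = 0.874, permutation p = 0.0014, adjusted 0.027; rho = 0.891, permutation p = 0.0014, adjusted 0.051) did so too, with 0.823 and 0.809 within slides. All 20 T-cell markers were kept. Their mean deviation was between -1.75 (mouse 20) and 0.89 in +/L tumours and between -0.86 and 1.46 (mouse 19) in +/+ tumours, and Cd3e, the signalling chain of the T-cell receptor, differed between genotypes by -0.78 (limma adjusted p = 0.67) and Cd8a by 0.64 (limma adjusted p = 0.83). Trat1, an adaptor of T cells, differed by 0.84 (limma adjusted p = 0.74, well above background on 8 arrays) and the T-cell receptor kinase Zap70 by -0.75 (limma adjusted p = 0.76). The part of T-cell content in the levels of these genes was not tested.

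Ifng rose with its receptor and targets (r = 0.859, permutation p = 0.0010, adjusted 0.025; rho = 0.830, permutation p = 0.0047, adjusted 0.085), with 0.668 within slides and 0.848 without mice 20 and 101. Nkg7 rose with the lineage transcription factors (r = 0.787, permutation p = 0.0036, adjusted 0.048; rho = 0.758, permutation p = 0.016, adjusted 0.14), with 0.677 within slides. Ncr1 moved against the Fas pathway genes (r = -0.833, permutation p = 0.0028, adjusted 0.043; rho = -0.770, permutation p = 0.012, adjusted 0.13), with -0.827 within slides and -0.578 without mice 20 and 11. In mouse 11 Ncr1 was lowest, at a reading not well above background, and the score of the Fas pathway genes was highest (0.34). None of the 120 relations passed adjustment within the slides of the headers or of the labels. There the smallest permutation p of 0.0012 would alone reach 0.139 after adjustment over 120. Without mouse 866 or without mouse 101, 5 relations passed, and without mouse 19, 1 did.

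**Figure D5:**
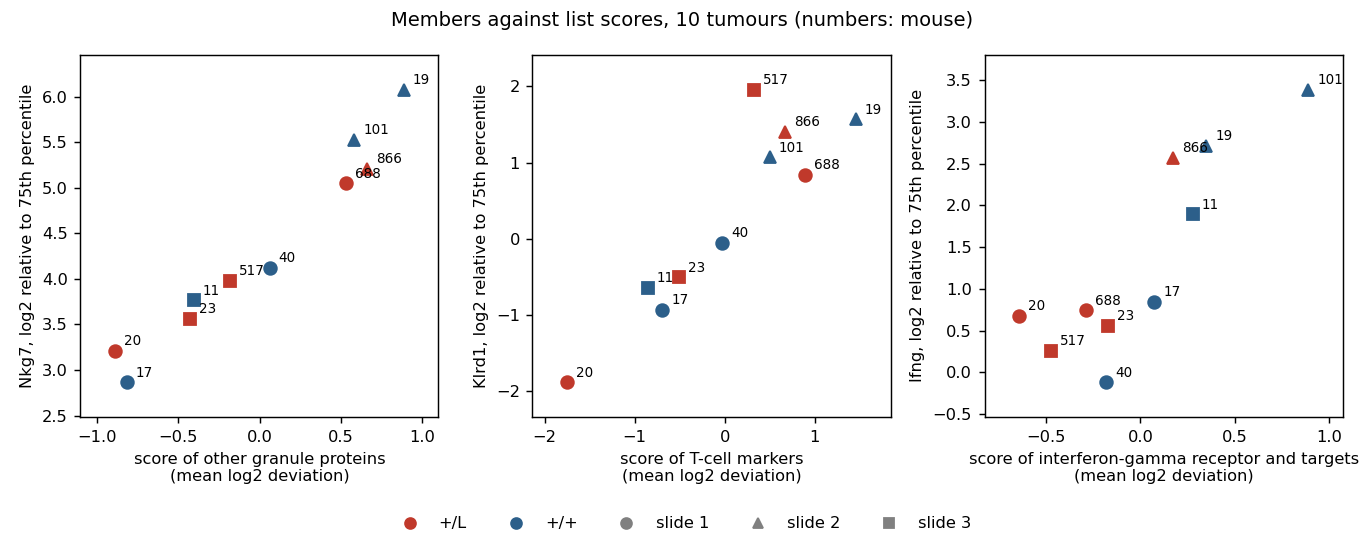
Log2 value of Nkg7, Klrd1 and Ifng (vertical axes) against the mean log2 deviation of other granule proteins, T-cell markers and interferon-gamma receptor and targets (horizontal axes) in 10 tumours, with colour for genotype, symbol for slide and the mouse number beside each point. Nkg7 and its list lie close to a line (r = 0.978), mouse 20 is lowest for Klrd1 and its list, and the 3 slide 2 tumours are the highest for Ifng.

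Markers of other cells that can hold granzymes were read beside these genes. The 20 B-cell markers were lower in +/L in 16, with 0 at an unadjusted p under 0.05; Cd72 (-1.15), Spib (-0.66) and Cxcr5 (-0.89) had the lowest p, and Cd79a differed by -0.30 (limma adjusted p = 0.90). Of 15 macrophage markers 11 were lower, 5 of them and 2 of the 4 higher ones at an unadjusted p under 0.05, against 5.44% lower and 3.14% higher of all genes. The lowest p were those of Cd163, Sirpa (-0.95) and C1qc (-1.33, limma adjusted p = 0.54 for all 3). Cd163 was well above background on 3 +/L and 0 +/+ arrays. Its mean was at least 5.56-fold higher in +/L when the +/+ readings are set to the lowest well-measured signal of their arrays. The SD in +/L was 3.44 log2 units and the groups overlapped, so this bound holds for the means only. Of 9 kept mast cell and basophil markers 8 were higher in +/L, 4 at an unadjusted p under 0.05, against 3.14% of all genes, led by Hdc (1.75), Mcpt1 (2.51) and Gata2 (0.90), with limma adjusted p of 0.56. Mcpt1 was well above background on 3 +/L and 1 +/+ arrays. Their mean deviation reached 2.55 in mouse 688 and 2.20 in mouse 20. Mouse 20 was highest for Gzmb and Ncr1, whereas mouse 688 was among the 3 lowest for both. Of 10 plasmacytoid dendritic cell markers 7 were lower, with 0 at an unadjusted p under 0.05; Runx2 (-0.59), Cox6a2 (-1.04) and Pacsin1 (-0.73) had the lowest p. No relation of a member to the B-cell, macrophage, mast cell or dendritic cell list passed adjustment, and their part in the levels was not tested.

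Because age differed with genotype, each gene was set against age over the 10 tumours. Gzma fell with age (r = -0.837, permutation p = 0.0034, adjusted over 10 genes 0.034; rho = -0.791, permutation p = 0.0090, adjusted 0.090). After subtracting genotype means r was -0.806. Without mice 866 (11 months) and 11 (29 months), the ages farthest from the median, it was -0.530, so that the relation leans on these 2 tumours. For the other 9 genes r lay between -0.375 (Klrb1c) and 0.096 (Prf1), with adjusted permutation p of 0.97 for each.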

How the data were processed

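RNA of 10 lymphomas was read on 1 Agilent array each. The authors obtained each intensity with Agilent's Feature Extraction software (version 10.5.1.1 in the file headers), and flags from the same software, per the file headers, say whether a spot was well above background. A value table deposited beside them is on a log2 scale, with a method not given in the sources used here. Its deviations from the probe mean had an r of 0.984 to 0.992 with normexp values after quantile normalization, 10 of 10 columns matched their own array best, and column medians were 6.96 to 6.97. Its offset and background method stay unknown.

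Here the processed signal was divided by its 75th percentile over non-control spots of the array and put on a log2 scale. Outlier spots were left out and spots of a probe averaged. A probe was kept if 3 or more of the 10 arrays read it well above background (26410 of 41174 probes), and each gene was represented by its probe of highest mean. Symbols were updated through RefSeq (GRCm38.p6), and 14798 of 17775 names are current symbols. Genotypes were compared with limma 3.58.1 in R 4.3.3, threshold an adjusted p under 0.05, and the procedure was tested on simulated data. Correlations used 100000 permutations, and after subtracting slide or genotype means all permutations within those blocks. A list score is the mean of a gene's deviation from its mean over the 10 tumours. The arrays' number limits the precision. Mouse numbers were taken as separate animals, so p-values measure the spread between tumours.

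The 10 genes and the lists were chosen with earlier results of these data known. Genes named are the 10, the 3 of lowest p in each of 12 lists, the 10 most like the summary value, and Cd3e, Cd8a and Cd79a; 8 genes nearest to single members were added after their values were seen. Of these, 2 list genes are not reported here. Alternatives changed background correction, normalization, filter, probe rule, test, covariate, slide block and the set of arrays. Leaving out mice 866 and 17, leaving out mice 20 and 11, and the count of genes with all slide 2 arrays highest were chosen after seeing the data. The RefSeq promoter of Klrd1 was not used here.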

Additional observations from a re-analysis of the deposited data

Results flagged for a closer look

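Ifng in the +/L tumour of mouse 866 stood apart from its group. Its log2 value was 2.57, the next highest +/L tumour was at 0.75 and the lowest at 0.26, so that the gap to the nearest tumour was 0.789 of the group's range, above Dixon's critical value of 0.71 for 5 samples. It was the only one of 20 sets (10 genes in 2 genotypes) to pass, and chance flags about 1 set in 20. The tumour was on slide 2 by the file headers, with mice 101 and 19, and its description label gives another slide. The second Ifng probe gave 1.73 in the same tumour, also the highest of the +/L group. The Ifng difference between genotypes was -1.18 without mouse 866, and it was -1.25 without mouse 40, -0.37 without mouse 101 and -0.11 in female-labelled mice, against -0.78 over all 10 tumours. The cause was not tested.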

How the results depend on the processing

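Under the alternatives, 0 of the 10 genes passed the adjusted threshold. Over all genes, 1 passed with normexp and quantile normalization and 1 with the authors' deposited values, against 0, and 0 to 3 with single tumours left out. At an unadjusted p under 0.05 there were 1525 genes, 669 with the slide of the description labels as a block, 2521 without mice 20 and 11, and 913 (without mouse 101) to 2314 (without mouse 20) with single tumours left out. Of the 10 genes, 2 (Gzma and Fasl) had an unadjusted p under 0.05 without mice 866 and 17, and 0 to 1 with single tumours left out, Ncr1 without mouse 688. Of all 17775 genes, 1276 did so without mice 866 and 17, and 1752 without mouse 688. Among the 10 genes the number lower in +/L was 6. It became 3 with the header slide as a block, 0 with the description slide, 3 in female-labelled mice only and 4 to 7 with single tumours left out.

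Differences changed sign as follows. With age as a covariate they became -0.59 for Gzma, -0.56 for Klrd1 and -0.25 for Klrb1c. The header slide as a block gave 0.11 for Gzmb, 0.15 for Gzmk and 0.10 for Nkg7. The description slide as a block gave 0.036 for Gzmb, 0.13 for Gzmk, 0.49 for Prf1, 0.20 for Nkg7, 0.019 for Fasl and 0.066 for Ifng. In female-labelled mice they were 0.27 for Gzmk, 0.10 for Nkg7 and 0.030 for Fasl. The T-cell score as a covariate gave 0.067 for Gzmk, quantile normalization -0.076 for Klrb1c and the authors' deposited values 0.021 for Nkg7. Without mice 866 and 17 Klrd1 was at -0.38, and without mice 20 and 11 Gzmk was at 0.18. With single tumours left out, differences ran from -0.66 to 0.28 for Gzmb, -0.40 to 0.33 for Gzmk, -0.67 to 0.13 for Nkg7, -0.24 to 0.72 for Klrd1 and -0.039 to 0.70 for Klrb1c. For Ifng they kept their sign, from -1.25 to -0.37. The cause was not tested.

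Correlated pairs numbered 7, but 3 with the mean of all kept probes, 0 with the header slide as a block, where a lone pair at the smallest p of 0.0012 cannot pass, 0 in female-labelled mice, 0 without mice 866 and 17, 2 without mice 20 and 11, and 0 to 8 with single tumours left out. Relations to lists numbered 9, but 14 with the authors' deposited values, 0 with either slide as a block, 4 in female-labelled mice, 1 without mice 866 and 17, and 1 to 12 with single tumours left out. Settings with fewer arrays have less power by construction. Among the 10 genes, dim readings limit Ncr1 and Klrb1c, each not well above background on 1 array, and several list genes such as Cd163 and Mcpt1 were measured on fewer. No paired analysis was possible because the mouse numbers are not shared between the genotypes.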
